A study of Homo sapiens with 2 samples.

Results

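The ATP-binding cassette (ABC) genes were taken as every row of the deposited table whose symbol consists of ABC, a subfamily letter from A to G and a number. This gave 46 of 25343 rows, among them 1 annotated pseudogene, ABCC13. Members that carry other symbols (TAP1, TAP2 and CFTR) and pseudogenes with a letter suffix fell outside the rule. Expression was measured by RNA-seq of total RNA in 2 libraries of C4-2B, a castration-resistant subline of the human prostate cancer line LNCaP. The Con library came from enzalutamide-sensitive cells kept in medium with DMSO, the solvent control, and the ENZR library from enzalutamide-resistant cells kept in 20 µM enzalutamide, an antiandrogen. Both were grown in RPMI 1640 with fetal bovine serum and antibiotics, in parallel. Resistance and the presence of the drug therefore differ together between the 2 libraries and cannot be told apart. The ending shC in both titles is unexplained, and nothing in the labels says whether the resistant line is 1 clone.

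Each group had 1 library (21024484 reads in genes for Con and 23479051 for ENZR), so no value has a replicate and no test of the conditions was made. Levels are in CPM, counts per 1000000 reads with the authors' TMM scaling applied. Folds are plain CPM ratios, and the range after each is its counting interval, the exact 95% interval (Clopper-Pearson) from the read numbers, which covers counting error only. Counts past 2-fold or 4-fold use log2 of ENZR over Con with 1 CPM added to both, in genes whose mean of the 2 libraries was at least 1 CPM. In these bulk libraries, fewer cells of a kind and less RNA per cell cannot be told apart. All 8 markers of prostate luminal epithelium were present in both libraries, with summed levels of 3617 CPM and 3868 CPM. Of the 3 leukocyte, 2 endothelial and 3 fibroblast markers, CD3E and CDH5 had 0 reads in both libraries, and the summed levels were 0.490 CPM and 0.202 CPM, 1.57 CPM and 1.66 CPM, and 18.1 CPM and 45.8 CPM. The fibroblast sum was nearly all COL1A1, while DCN had 0 and 2 reads and LUM 0 and 32 reads. The part of such cells in the results below was not tested.

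ABC proteins bind and hydrolyse ATP with a pair of conserved nucleotide-binding domains, and most use this energy to move lipids, sterols, peptides, metals or drugs across a membrane. Full transporters hold all domains in 1 chain, half-transporters work as dimers, and the ABCE and ABCF proteins lack membrane domains and act on ribosomes. In the prostate, ABCC4 is known as an androgen-induced gene, and ABCB1, ABCC1 and ABCG2 are known for drug efflux in many cancers.

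Of the 46 genes, 31 reached a mean of 1 CPM and 15 did not. Among the 31, 4 (ABCC8, ABCB11, ABCG2 and ABCA3) were at least 2-fold higher in ENZR, or 12.9%, beside 6.69% of all 13803 genes at this level. Another 3 (ABCC4, ABCA12 and ABCF1) were at least 2-fold lower, or 9.68%, beside 4.64% of all genes. Past 4-fold were 1 higher, ABCC8, and 2 lower, ABCC4 and ABCA12, where the background was 1.91% and 1.16%. The other 24 lay within 2-fold. With 31 genes these shares rest on a handful of members, and 4 of the 31 were under 1 CPM in one library and reached the mean through the other (ABCA12, ABCA13, ABCB5 and ABCC8). The median log2 ratio was 0.25, with 18 members above 0 and 13 below, against a median of -0.01 over all genes, of which 49.5% were above 0 and 50.5% below. Over the 23 members whose mean reached 5 CPM, the median was 0.01. For 27 of the 31, the ratio of 1 lay outside the counting interval (background 71.2%).

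**Figure D1:**
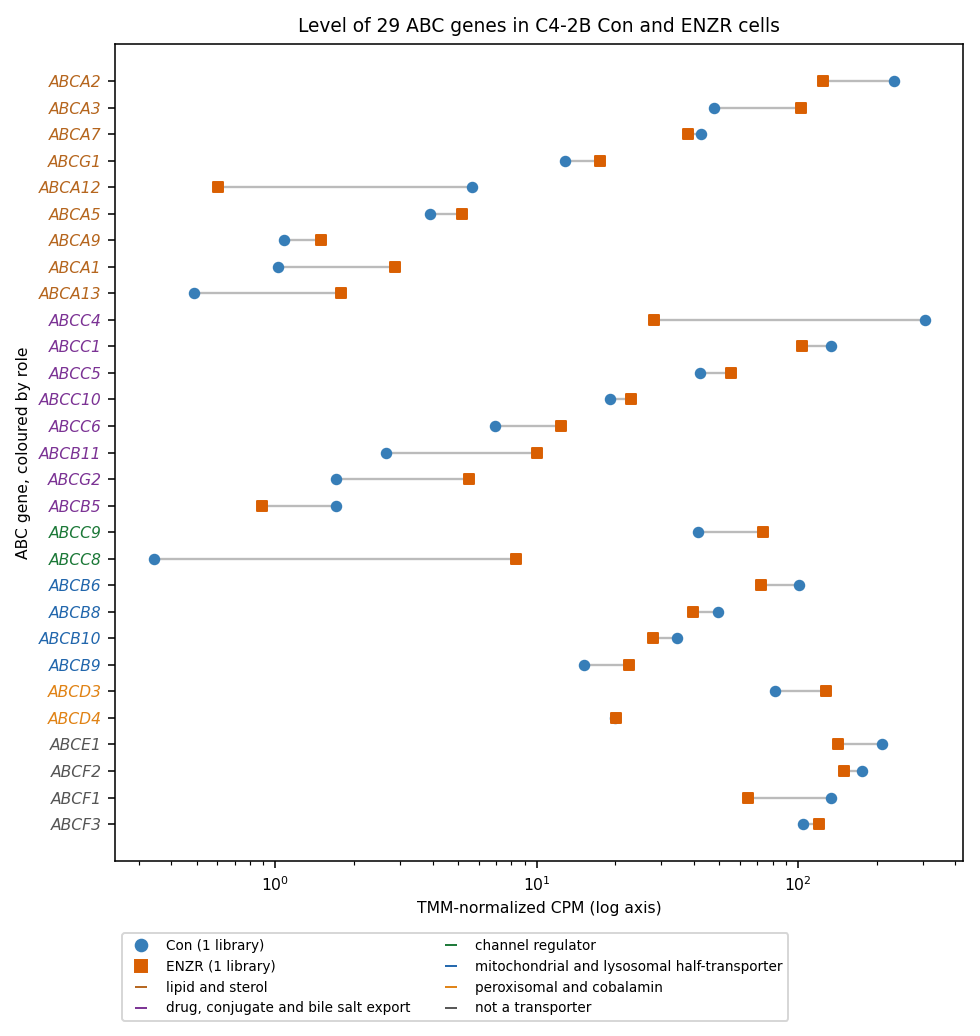
Level of 29 of the 31 ABC genes that reached a mean of 1 CPM, in TMM-normalized CPM on a log axis, with 1 point for the Con library and 1 for the ENZR library joined by a line, and names coloured by role. The long lines belong to ABCC4 and ABCA12, which were lower in ENZR, and to ABCC8, which went from 0.343 CPM in Con to 8.33 CPM in ENZR.

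Taken as one sum, the 46 genes held 1961 CPM in Con against 1557 CPM in ENZR, 0.190% and 0.164% of the reads. The difference of ENZR minus Con was -404 CPM, of which ABCC4 alone made up -277 CPM. Without it the sums were 1655 CPM and 1529 CPM, a ratio of 0.924, while the ratio of the 2 column sums over all rows was 0.922.

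ABCC4, also called MRP4, exports cyclic nucleotides, prostaglandins and conjugated steroids. It was at 306 CPM in Con (6236 reads) and 28.0 CPM in ENZR (693 reads), 10.9-fold lower (10.1 to 11.8). This was the most negative log2 ratio of the family, at -3.40. Per kilobase of the longest annotated transcript, ABCC4 ranked 3 of 31 in Con at 49.5 CPM per kb and 19 of 31 in ENZR at 4.54 CPM per kb.

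The chromosome around ABCC4 was lower as well, though by less. On chromosome 13 the 238 genes at or above a mean of 1 CPM had a median log2 ratio of -0.54, and 16.8% of them were at least 2-fold lower. Over all genes at this level the median was -0.01, and 4.64% were at least 2-fold lower. The 5 such genes on either side of ABCC4 had a median of -0.48, of which 2 were past 2-fold downward and 1 upward. Of the 20 within 10 places, 15 were below 0 and 5 above, and 5 were at least 2-fold lower. GPC6, a glypican, stood at 29.4 CPM and 0.930 CPM 3 places away (log2 ratio -3.98). SLITRK5, a neuronal membrane protein, went the other way 5 places away, at 0.343 CPM and 3.76 CPM. The part of the chromosome in the ABCC4 value was not tested.

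**Figure D2:**
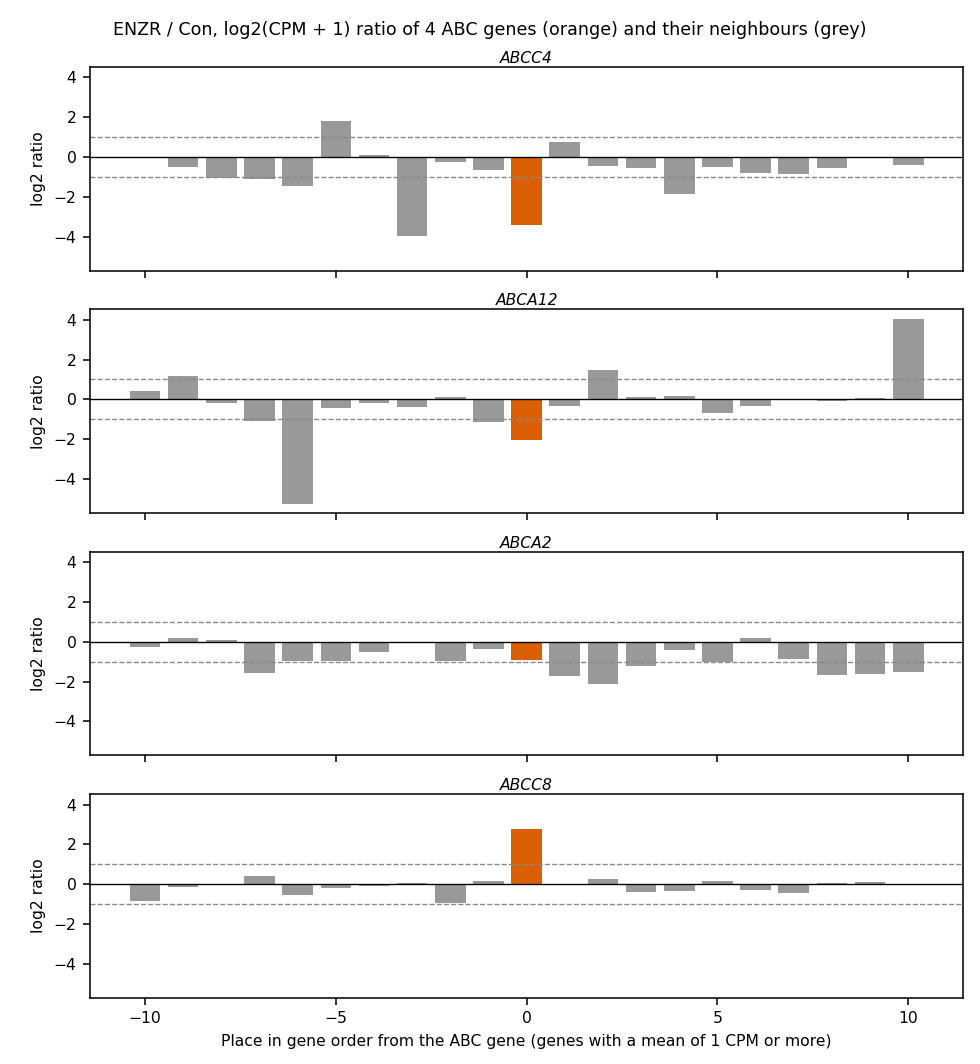
Log2 of ENZR over Con, with 1 CPM added to both, for ABCC4, ABCA12, ABCA2 and ABCC8 (orange) and the 10 expressed genes on either side (grey), by place in gene order, with dashed lines at 2-fold. ABCC8 stood alone among neighbours within 2-fold, whereas the ABCA2 bar was like those around it.

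The other exporters of drugs, conjugates and bile salts lay on both sides of 0. Of the 12 genes of this role besides ABCC4, 7 were measured at 1 CPM or more, with 5 above 0, 2 below (ABCC1 and ABCB5) and a median log2 ratio of 0.39. ABCB11, the bile salt export pump of the liver, was at 2.65 CPM in Con (54 reads) and 10.1 CPM in ENZR (249 reads), 3.81-fold higher (2.83 to 5.21). ABCG2, the breast cancer resistance protein, which exports many drugs and urate, was at 1.71 CPM and 5.50 CPM (35 and 136 reads), 3.21-fold higher (2.20 to 4.79). Both were low genes in both libraries: per kilobase, ABCB11 ranked 26 and 23 of 31 and ABCG2 ranked 25 in each.

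ABCC1, or MRP1, which exports glutathione conjugates, was the main other gene of this role by level, at 20.4 CPM per kb in Con and 15.7 CPM per kb in ENZR. Its CPM was 134 and 104, a ratio of 0.772 (0.731 to 0.815). The log2 ratio of ABCC1 was -0.37, while its 10 neighbours on chromosome 16 had a median of 0.45. ABCC5, an exporter of cyclic nucleotides and other organic anions, was at 42.1 CPM and 55.5 CPM, a ratio of 1.32 (1.21 to 1.44). These 2 differed by less than 2-fold and in opposite directions. ABCC10, a further MRP-type exporter, was at 19.2 CPM and 22.9 CPM (ratio 1.19, 1.05 to 1.36).

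ABCC6, whose loss causes pseudoxanthoma elasticum, was at 6.96 CPM and 12.4 CPM, a ratio of 1.78 (1.46 to 2.19). Its near-identical pseudogenes were also higher in ENZR, ABCC6P1 with 5 and 48 reads and ABCC6P2 with 37 and 119, so the split of reads among the 3 is uncertain. ABCB5, known from melanoma, had 35 and 22 reads, a ratio of 0.519 (0.290 to 0.910). The log2 ratio of ABCB5 was -0.52, while its 10 neighbours on chromosome 7 had a median of 0.44. ABCB1, P-glycoprotein and the classical multidrug exporter, had 2 reads in Con and 0 in ENZR, both under the floor of 3 reads, so no fold is given. Its level was therefore at most 0.121 CPM in ENZR by counting error alone, and expression was not detectable there at this depth.

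**Figure D3:**
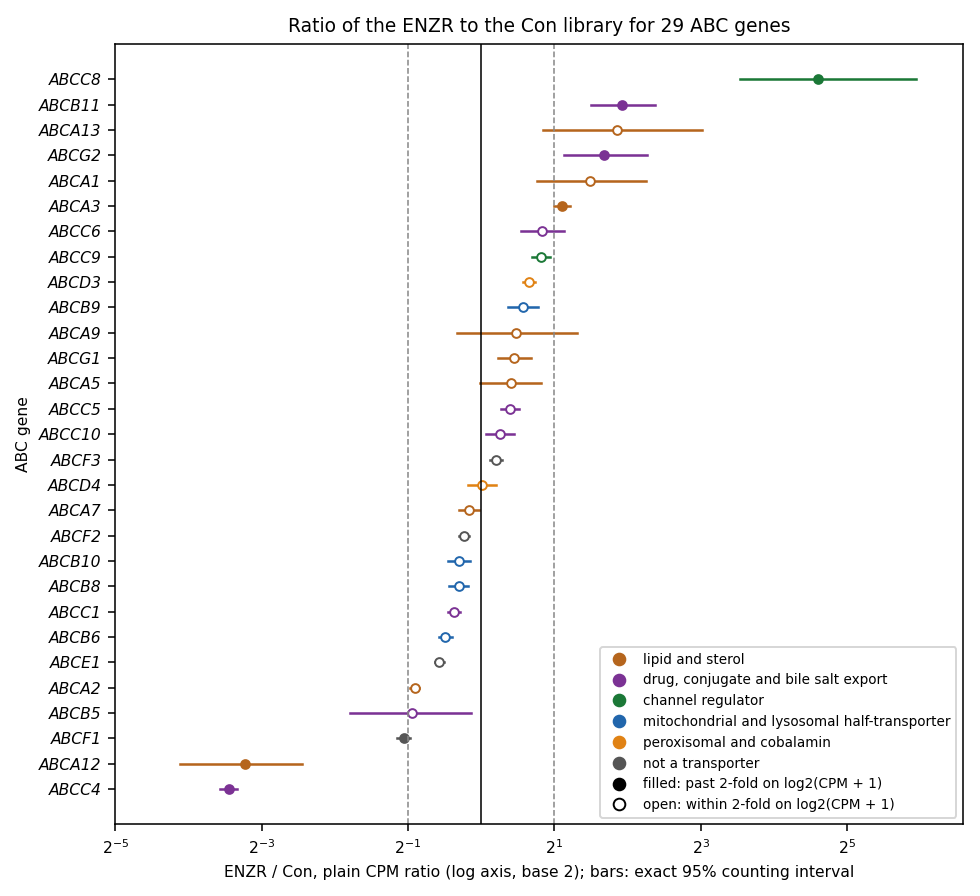
Plain CPM ratio of ENZR over Con for the same 29 genes on a log axis (base 2), with the exact 95% counting interval as a bar, ordered by ratio and coloured by role. Filled points are past 2-fold on the log2 scale with 1 CPM added, and the intervals of ABCA5, ABCA9 and ABCD4 hold 1.

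ABCC8 and ABCC9 are not exporters but the sulfonylurea receptors SUR1 and SUR2, which regulate ATP-sensitive potassium channels. ABCC8 was at 0.343 CPM in Con, on 7 reads, and 8.33 CPM in ENZR, on 206 reads, a ratio of 24.3 (11.6 to 61.2) and the highest of the 31. ABCC9 was much more abundant, at 5.01 CPM per kb in Con and 8.83 CPM per kb in ENZR, and its ratio was 1.76 (1.62 to 1.91). Both regulators were thus higher in ENZR, 1 past 2-fold. Of the genes for the channel pores, KCNJ11, which lies next to ABCC8, was at 11.1 CPM and 12.4 CPM (ratio 1.12, 0.938 to 1.33). KCNJ8, the pore that pairs with SUR2 in vessels, had 1 read against 39, a ratio of 32.2 (5.45 to 1304), under a mean of 1 CPM. The 10 neighbours of ABCC8 all lay within 2-fold, between log2 ratios of -0.96 and 0.28. Those of ABCC9 on chromosome 12 had a median log2 ratio of 0.57, beside 0.80 for ABCC9 itself. Of the 20 genes within 10 places of ABCC9, 15 were above 0 and 5 below. The part of this neighbourhood in the ABCC9 value was not tested. Neighbour medians are printed for some members only, both with and against the direction of the member.

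Of the 17 genes grouped as lipid and sterol transporters, 9 were measured at 1 CPM or more, with 6 above 0 and 3 below. ABCA12 loads lipids into the lamellar granules of skin cells and is the gene of harlequin ichthyosis. It had 116 reads in Con (5.68 CPM) and 15 in ENZR (0.607 CPM), 9.37-fold lower (5.45 to 17.3). Its 10 neighbours on chromosome 2 had a median log2 ratio of -0.26, with 1 past 2-fold in each direction. BARD1, the partner of BRCA1 and the adjacent gene, was at 153 CPM and 68.0 CPM, and FN1, fibronectin, 2 places away, at 229 CPM and 633 CPM. Of the 20 genes within 10 places, 11 were below 0 and 9 above. ACADL, 6 places away, was at 44.5 CPM and 0.202 CPM. In the other direction, IGFBP5, 10 places away, was at 0.245 CPM and 19.8 CPM. ABCA3, which moves phospholipids into the lamellar bodies of lung surfactant cells, was at 47.8 CPM and 103 CPM (976 and 2538 reads), 2.15-fold higher (1.99 to 2.31). A transcribed pseudogene on the opposite strand overlaps it, ABCA17P, at 1.86 CPM and 3.28 CPM, which is a small amount beside ABCA3.

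ABCA2, a transporter of late endosomes and lysosomes that is abundant in brain, was at 28.7 CPM per kb in Con, the highest of this role, and at 15.3 CPM per kb in ENZR, beside 15.5 for ABCA3. It stood at 234 CPM and 124 CPM, 1.88-fold lower (1.80 to 1.97), with a log2 ratio of -0.90 that falls short of 2-fold. The 5 expressed neighbours on either side on chromosome 9 were all below 0, with a median of -0.96, and 4 were at least 2-fold lower. Of the 20 within 10 places, 17 were below 0 and 3 above. ENTPD2, an ectonucleotidase 2 places away, was at 39.1 CPM and 8.13 CPM. The part of this neighbourhood in the ABCA2 value was not tested.

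Of the sterol exporters proper, ABCA1, ABCG1 and ABCG4 were higher in ENZR, all at low or moderate levels. ABCA1, which passes cholesterol to apolipoprotein A-I, had 21 and 71 reads (1.03 CPM and 2.87 CPM), a ratio of 2.79 (1.69 to 4.78). Its log2 ratio with 1 CPM added was 0.93, just short of 2-fold, and it passed with a pseudocount of 0.5 CPM. The 10 neighbours of ABCA1 on chromosome 9 had a median log2 ratio of -0.53, in the opposite direction. ABCG1, which passes cholesterol to high-density lipoprotein, was at 12.8 CPM and 17.6 CPM, a ratio of 1.37 (1.17 to 1.60). ABCG4, its close relative in the nervous system, had 2 and 31 reads, a ratio of 12.8 (3.26 to 110), and stayed under a mean of 1 CPM. The ABCG5 and ABCG8 sterol pump of liver and gut had 0 and 1 reads and 0 and 0 reads.

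Other members of the A subfamily lay within 2-fold on the log2 scale. ABCA7, a phospholipid transporter and Alzheimer's risk gene, was at 42.5 CPM and 38.0 CPM (ratio 0.894, 0.814 to 0.981). ABCA5 had 80 and 128 reads and ABCA9 22 and 37, with counting intervals of 0.991 to 1.77 and 0.798 to 2.47 that hold 1. ABCA13, the longest member by transcript at 17.2 kb, had 10 and 44 reads, a ratio of 3.63 (1.80 to 8.09) and a log2 ratio of 0.90. For these low genes the added 1 CPM holds the log2 ratio down.

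The 5 half-transporters of mitochondria, lysosomes and related membranes all lay within 2-fold, with 4 below 0, 1 above and a median log2 ratio of -0.29. ABCB6, a porphyrin transporter, was at 101 CPM and 72.2 CPM (ratio 0.713, 0.669 to 0.760). ABCB8, of the inner mitochondrial membrane, had a ratio of 0.807 (0.739 to 0.882), and ABCB10, which supports heme synthesis, 0.811 (0.729 to 0.902). ABCB9, a lysosomal peptide transporter close to TAP1 and TAP2, was the member above 0, at 15.2 CPM and 22.5 CPM (ratio 1.48, 1.29 to 1.71). ARL6IP4 and OGFOD2 overlap ABCB9 on the opposite strand, at 99.9 CPM and 59.8 CPM and at 16.8 CPM and 17.3 CPM. Whether the counting used strand is not given in the sources used here, so reads from overlapping genes cannot be told apart.

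The D subfamily brings fatty acids into peroxisomes, except ABCD4, which acts in lysosomal cobalamin release. ABCD3, the abundant peroxisomal membrane protein PMP70, was at 81.8 CPM and 129 CPM (ratio 1.57, 1.48 to 1.67). It was modestly higher in ENZR, where it ranked 4 of 31 per kilobase. ABCD4 was at 20.0 CPM and 20.2 CPM (ratio 1.01, 0.882 to 1.15), and ABCD2 had 1 and 5 reads.

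The members that are not transporters were among the most abundant per kilobase, at ranks 1, 2, 4 and 5 of 31 in Con and 1, 2, 3 and 7 in ENZR. ABCE1, which splits ribosomes after termination, was at 53.7 CPM per kb in Con, rank 1, and 36.2 CPM per kb in ENZR, rank 3. Its CPM was 210.4 and 142 (ratio 0.674, 0.644 to 0.705). It overlaps OTUD4 and ANAPC10 on the opposite strand, which were at 61.0 CPM and 44.5 CPM and at 8.18 CPM and 4.37 CPM. The 10 neighbours of ABCE1 on chromosome 4 had a median log2 ratio of -0.51, beside -0.57 for ABCE1 itself. Of the 20 genes within 10 places, 17 were below 0 and 3 above. The part of this neighbourhood in the ABCE1 value was not tested. ABCF1, which binds the initiation factor eIF2, was at 134 CPM and 64.5 CPM, 2.08-fold lower (1.95 to 2.21). This call was at the edge: the log2 ratio was -1.05, and -0.93 with the TMM scaling undone. ABCF2 was at 176 CPM and 149.9 CPM (ratio 0.852, 0.814 to 0.892), and ABCF3 at 105 CPM and 121 CPM (ratio 1.15, 1.09 to 1.22). The 3 ABCF genes, closely related in sequence, thus lay on both sides of 1.

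**Figure D4:**
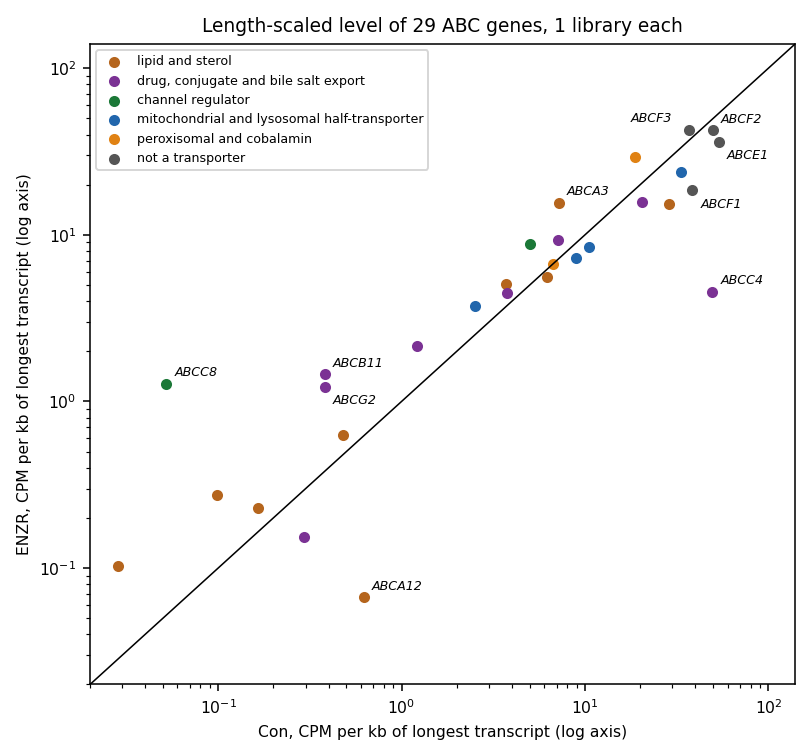
Level of the same 29 genes per kilobase of the longest annotated transcript in Con (x axis) and ENZR (y axis), both log axes, with 1 library each, coloured by role, and a line where both are equal. ABCC4 and ABCA12 lie below the line and ABCC8 above it, while ABCE1, ABCF2 and ABCF3 sit near the top in both libraries.

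The 15 members with a mean under 1 CPM are accounted for by their reads. ABCA6, ABCC12 and ABCG8 had 0 reads in both libraries, which allows up to 0.147 CPM (Con) or 0.121 CPM (ENZR) each. A further 4 had 3 reads or fewer in each library: ABCA8 (1 and 2), ABCB1, ABCC11 (3 and 3) and ABCG5. The remaining 8 had more than 3 reads in at least one library. ABCA4, the retinoid transporter of photoreceptors, had 0 reads against 8. Its ENZR level was 2.20 times the Con floor of 3 reads, and the counting interval of its ratio had a lower limit of 1.41. ABCC2, the canalicular exporter MRP2, had 4 and 4 reads and ABCC3, or MRP3, 1 and 4. ABCB4, the phosphatidylcholine floppase of bile, had 6 and 8 reads, ABCA10 4 and 8, and the pseudogene ABCC13 9 and 18. Apart from ABCG4 and ABCA4, the counting intervals of these ratios all held 1.

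**Figure D5:**
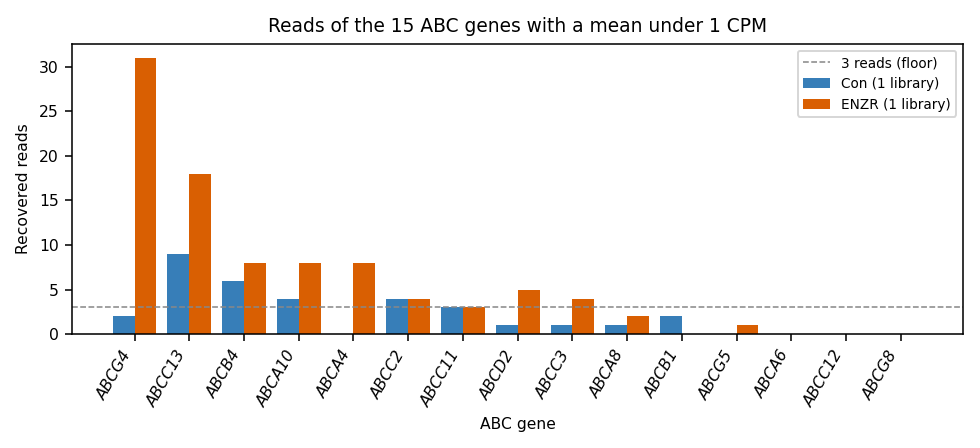
Reads in the Con and ENZR libraries for the 15 ABC genes with a mean under 1 CPM, as bars from 0, with a dashed line at the floor of 3 reads. ABCG4 had 2 and 31 reads, and the last 3 genes had none in either library.

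Start-site sequences from RefSeq (GRCh38.p14, while the table was made on hg19) were matched by symbol for 35 of the 46 genes. They are shown for 2 CpG-dense and 2 CpG-poor cases among the members past 2-fold, chosen after the values were seen. Each pair was picked to hold 1 lower and 1 higher gene, so nothing about start and direction can be read from them. Each run is the 250 bases before the start, 5′ to 3′ on the gene's strand, with CpG dinucleotides in capitals. ABCC4, at chr13:95301452-95301701 on the minus strand, holds 42 CpG, and ABCA3, at chr16:2340729-2340978 on the minus strand, 38. ABCA12, at chr2:215138627-215138876 on the minus strand, holds 1, and ABCB11, at chr2:169031325-169031574 on the minus strand, 2.
ABCC4: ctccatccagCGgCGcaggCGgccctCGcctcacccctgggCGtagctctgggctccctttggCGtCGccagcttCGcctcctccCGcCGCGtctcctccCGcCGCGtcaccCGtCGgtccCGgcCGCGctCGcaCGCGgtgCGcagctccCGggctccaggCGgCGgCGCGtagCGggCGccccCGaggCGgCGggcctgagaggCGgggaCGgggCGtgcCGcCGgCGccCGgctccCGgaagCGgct
ABCA3: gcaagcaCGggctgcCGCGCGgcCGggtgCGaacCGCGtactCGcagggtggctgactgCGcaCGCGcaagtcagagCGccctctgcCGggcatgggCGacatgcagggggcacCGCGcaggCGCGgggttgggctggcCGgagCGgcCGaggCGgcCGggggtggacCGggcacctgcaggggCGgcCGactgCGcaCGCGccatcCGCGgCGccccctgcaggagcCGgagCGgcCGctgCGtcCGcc
ABCA12: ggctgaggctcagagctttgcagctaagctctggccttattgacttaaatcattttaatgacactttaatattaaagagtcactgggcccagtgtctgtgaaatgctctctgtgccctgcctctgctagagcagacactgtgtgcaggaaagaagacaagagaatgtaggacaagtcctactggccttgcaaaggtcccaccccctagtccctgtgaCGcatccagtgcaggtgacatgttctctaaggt
ABCB11: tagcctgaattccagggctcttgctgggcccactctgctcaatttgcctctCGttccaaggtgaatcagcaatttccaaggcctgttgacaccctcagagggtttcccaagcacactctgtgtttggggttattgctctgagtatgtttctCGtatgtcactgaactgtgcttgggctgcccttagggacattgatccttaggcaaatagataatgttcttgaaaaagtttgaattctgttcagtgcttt

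ABCC4 and ABCA12 were lower in ENZR, and ABCA3 and ABCB11 higher. Over the 25 members that reached a mean of 1 CPM and had an entry, the median was 20 CpG (range 1 to 42), against 3 (0 to 19) over the 10 members under it and 11 over all 35116 promoters of the table. Only the first entry of each member was used. The same split at 1 CPM was not made over all genes, so whether it is particular to ABC genes was not tested. ABCG2 had 2 CpG and ABCF1 31. The 25 bases just after the RefSeq start were found in a GENCODE 29 transcript of the gene for 27 of the 35. They were not found for ABCA12 and ABCG2, where the start is the more uncertain. A match could lie anywhere in the transcript, and the start these cells use was not measured for any member.

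Motifs were searched on both strands of these 250 bases. The full palindrome of the androgen response element occurred in 0 of 35 members and in 0.00285% of all promoters. Its half-site TGTTCT, which each arm of that palindrome holds, occurred in 4 members (ABCA12, ABCB11, ABCG5 and ABCG8), 11.4% beside 12.4% of all promoters. ABCG5 and ABCG8 share 1 start region, so these are not separate cases. The direct repeat with a spacer that sterol-sensing LXR receptors bind and the sterol regulatory element TCACNCCAC occurred in 0 members, with 0.0142% and 0.883% of all promoters. The GC box GGGCGG occurred in 18 members, 51.4% beside 42.6%, and the TATA box TATAAA in 5, 14.3% beside 10.7%. These windows are short, and a match or its absence says only which letters are there.

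Genes that work with the ABC proteins were counted from 8 lists. The lists were chosen with earlier results of these data known. Their shares rest on few genes and only describe the lists. Of the family members under other symbols, TAP1, a subunit of the peptide transporter of antigen presentation, was at 14.1 CPM and 39.5 CPM, 2.81-fold higher (2.46 to 3.22). Its partner TAP2 was at 43.3 CPM and 52.9 CPM (ratio 1.22, 1.12 to 1.33), and CFTR, the chloride channel, had 1 and 2 reads. Among 11 measured genes of sterol efflux and its regulation, 8 were below 0, with a median log2 ratio of -0.34, and 2 passed 2-fold, both downward, or 18.2% beside 4.64% of all genes. They were NPC1, which exports cholesterol from lysosomes (102 CPM and 38.8 CPM), and SCARB1, the high-density lipoprotein receptor (202 CPM and 97.9 CPM). Their direction was opposite to that of ABCA1 and ABCG1.

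Of 15 measured xenobiotic receptors and conjugating partners of drug efflux, 2 passed 2-fold upward and 1 downward, or 13.3% and 6.67% beside 6.69% and 4.64% of all genes. GSTM2, a glutathione transferase with close relatives in sequence, had 3 and 385 reads, a ratio of 106 (36.0 to 516). At 0.147 CPM in Con it was at the floor and reached the mean through ENZR alone. AHR, the aryl hydrocarbon receptor, was at 6.61 CPM and 15.4 CPM. SLCO4A1, an organic anion uptake carrier, was at 71.1 CPM and 34.0 CPM. Around the D subfamily, 25 peroxisomal genes were measured, with a median of 0.12, and 3 were at least 2-fold lower, or 12.0% beside 4.64%. PEX6 and PEX10, of peroxisomal protein import, were 3.02-fold (2.59 to 3.54) and 2.76-fold (2.53 to 3.03) lower, and ACOX2, a branched-chain acyl-CoA oxidase, 5.90-fold (4.16 to 8.56). Their direction was opposite to that of ABCD3.

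In the remaining lists, no gene that reached a mean of 1 CPM passed 2-fold, beside 11.3% of all genes in either direction. KCNJ8, described above, was past it under that mean. The 29 measured iron-sulfur and heme genes had a median of -0.12 with 19 below 0, beside a median of -0.29 for the half-transporters. The 13 ribosome recycling and translation genes had a median of -0.12 with 10 below 0. Of all genes, 50.5% were below 0. Of 18 genes of cyclic nucleotide and prostaglandin handling, chosen for the substrates that ABCC4 exports, 12 were measured, 7 above 0 and 5 below, with a median of 0.03.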

How the data were processed

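RNA-seq values of 2 libraries, 1 per C4-2B subline (Con and ENZR), grouped by the source names in the labels, were taken from 1 table of 25343 rows. The deposited signal is TMM-normalized CPM, per the file headers, and the tools listed, per the submitters' processing notes, are Bowtie2 2.1.0, RSEM 1.2.15 and edgeR on build hg19, without a role for each. The sources used here do not give annotation or strand. All values were whole multiples of 1 step (0.0490 CPM in Con and 0.0404 CPM in ENZR) to within 0.01 reads for 100% of values, so reads were recovered. RSEM shares out ambiguous reads, so these may be rounded estimates. With 1 library per group a count test has no residual degrees of freedom, and none was run.

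Log2 ratios used a pseudocount of 1 CPM over the 13803 genes at or above a mean of 1 CPM, which understates the change of low genes. Intervals are exact 95% binomial intervals, computed with scipy 1.17.1, and cover counting error only, as does the floor of 3 reads. The calculation was tested on simulated reads that varied by counting alone, which checks the arithmetic and not the spread between libraries. Transcript lengths came from GENCODE 29 (longest transcript, 46 of 46 genes), gene order from RefSeq on GRCh38.p14 (97.4% of genes placed by symbol or synonym). Every member is named, except that 2 members and 1 marker gene are not reported here singly and stay in the counts. Other genes are named where they pass 2-fold in a list, up to 4 per list; KCNJ11, KCNJ8, TAP2, CFTR, the neighbouring and overlapping genes and the pseudogenes were named after their values were seen. The members, the lists and the role groups were chosen with earlier results of these data known. Alternatives changed the pseudocount, filter, scaling and membership.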

Additional observations from a re-analysis of the deposited data

How the results depend on the processing

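The scaling sets small ratios. Undoing the TMM scaling moved the median log2 over all genes from -0.01 to 0.10 and that of the ABC genes from 0.25 to 0.33, a distance of 0.25 and 0.23. The ABC median was 0.29 with upper quartile scaling, 0.34 with the 10 most abundant genes left out, 0.15 without a filter on low values and 0.01 with a mean of 5 CPM or more. In each of the 3 other scalings ABCF1 was no longer 2-fold lower. Members at least 2-fold higher numbered 4, but 6 with a pseudocount of 0.5 CPM, 5 with no filter, with the TMM scaling undone or without the 10 most abundant genes, and 2 with a pseudocount of 5 CPM or a mean of 5 CPM or more. In these last 2 settings the members at least 2-fold lower were 2 in place of 3, without ABCA12. Those at least 4-fold higher numbered 1, and 0 in both of the latter settings. Those at least 4-fold lower numbered 2, and 1 in both of these settings and with the TMM scaling undone. The higher pseudocount shrinks the ratios of low genes, and the stricter filter leaves 23 of the 31. Counts of plain ratios past 2-fold with an interval that excludes 1, added after seeing the data, were 6 higher and 3 lower, beside 8.42% and 5.97% of all genes by the same rule. No paired analysis was possible because each group has 1 library. Depth limits the 15 genes under 1 CPM, of which all but ABCG4 and ABCC13 had fewer than 10 reads in each library.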

Other observations

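Pseudogene rows of the family that the symbol rule leaves out were also present. ABCA11P had 78 reads (Con) and 180 (ENZR), a ratio of 1.90 (1.45 to 2.52), and ABCA17P had 38 and 81, a ratio of 1.76 (1.18 to 2.66). ABCC6P1 and ABCC6P2 had ratios of 7.92 (3.17 to 25.5) and 2.65 (1.82 to 3.95), beside 1.78 for ABCC6. The antisense gene ABCC5-AS1 had 0 reads and 1 read. The counting intervals of these 4 pseudogenes lay above 1, while that of ABCC13, which the rule includes, held 1 (0.704 to 4.17). Over all genes at a mean of 1 CPM or more, 71.2% of intervals excluded 1, in either direction. The 4 are not all separate cases: ABCC6P1 and ABCC6P2 are near-identical to ABCC6, and ABCA17P overlaps ABCA3 on the opposite strand. The share of ABCC6 and ABCA3 reads in these pseudogenes was not tested.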
